A study of Mus musculus with 6 samples.

Results

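Serpins are a family of proteins that share one fold, and most of them inhibit serine or cysteine proteases. In an inhibitory serpin the exposed reactive loop is cut by the protease, the serpin then changes shape, and the protease stays bound to it in an inactive form. Hepatocytes make most of the serpins of blood plasma, which act on clotting, fibrinolysis, complement and neutrophil proteases, while the clade b serpins lack a classical signal peptide and act mainly inside cells. A few members inhibit nothing and carry hormones or fold collagen instead.

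All genes whose symbol is Serpin followed by a clade letter from a to i and a digit were taken from the gene count table. This gave 68 of 54532 genes, of which 61 are protein-coding and 7 carry a pseudogene biotype. Clade a has 29 of them and clade b 28, and the other 11 belong to clades c to i. By the names in the files, 28 lie on chromosome 12, 16 on chromosome 13 and 14 on chromosome 1. Angiotensinogen (Agt), which is a serpin by fold, is outside this naming rule.

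The samples were livers of mice aged 5 weeks. One group was Ctrl, whose genotype label says no more than that, and the other was Fam210aHKO, in which Fam210a was knocked out in hepatocytes. Each group had 3 libraries of poly-A-selected RNA, and the series title gives the purpose as the effect of losing FAM210A, a mitochondrial protein, on the juvenile liver. Not given in the sources used here are the promoter that drove the deletion, the deleted part of the gene and the sex of the mice. For Fam210aHKO replicates 2 and 3 the genotype entry names a different gene number, so the groups follow the sample titles. The labels do not say that the 3 libraries of a group are separate animals, so p-values measure the spread between these libraries, part of which may be technical.

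Library totals were 12.98 to 16.9 M counts in Ctrl (M stands for 1e+06) and 12.5 to 19.7 M in Fam210aHKO. Levels are CPM (counts per 1e+06) scaled by trimmed mean of M-values (TMM) factors and are listed for replicates 1, 2 and 3 in that order. Fam210a itself had 119, 136 and 162 CPM in Ctrl and 31.7, 28.6 and 44.2 CPM in Fam210aHKO, a drop in all 3 libraries with no overlap (log2 fold change -1.99, SE 0.19, adjusted p = 4.42e-05). In Fam210aHKO replicate 1 the gene Lars2 stood at 3080.1 CPM, and the other 5 libraries had 23.3 to 29.2 CPM. The tissue label was checked on 11 hepatocyte markers, all of which were tested. Their summed level was 175951 to 251496 CPM in Ctrl and 95542 to 118006 CPM in Fam210aHKO. Of the 11, 6 (54.5%) fell, against 13.5% of all tested genes. The count was 10 by DESeq2 and 5 when scaled to library totals alone. The Y-linked gene Ddx3y was present in every library, at 91.4 to 138 CPM.

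Of the 68 serpins, 29 had enough counts to be tested, 16 of them in clade a, 5 in clade b and 8 in clades c to h. A gene was called at an adjusted p under 0.05 in edgeR's quasi-likelihood test over 13706 genes. In Fam210aHKO 4 serpins rose and 19 fell, so 23 of 29 (79.3%) were called, against 27.5% of all tested genes. The background is 14% of tested genes for a rise and 13.5% for a fall. The median log2 fold change was -1.12 over the tested serpins and 0.02 over all tested genes. CPM ranges of the groups did not overlap for 24 of the 29, 4 of them higher in Fam210aHKO and 20 lower. Over all tested genes this held for 42.7%, with 22% above Ctrl and 20.7% below. A call with at least a 4-fold change was made for 6 serpins, Serpina7, Serpina1c, Serpina1e, Serpina3k, Serpina12 and Serpina4-ps1, and for 4.66% of tested genes. In bulk RNA, fewer cells of a type and less RNA per cell cannot be told apart.

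Serpin transcripts made up 3.30%, 4.32% and 4.32% of all counts in Ctrl and 1.18%, 1.14% and 1.25% in Fam210aHKO. All 3 Fam210aHKO libraries lay below all 3 Ctrl libraries, and the share fell from 3.98 ± 0.590% to 1.19 ± 0.0573% (mean ± SD, n = 3 per group, exact permutation test, two-sided p = 0.1, the smallest that 3 against 3 libraries allow). Clade a carried most of it, with a summed level of 42202 ± 9041 CPM in Ctrl and 7829 ± 302 CPM in Fam210aHKO. Clades c to i summed to 4588 ± 308 CPM and 2315 ± 229 CPM. Clade b was a small fraction in either group, at 49.3 ± 13.6 CPM and 56.5 ± 9.98 CPM, and its ranges overlapped (exact permutation test, n = 3 per group, two-sided p = 0.6).

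**Figure D1:**
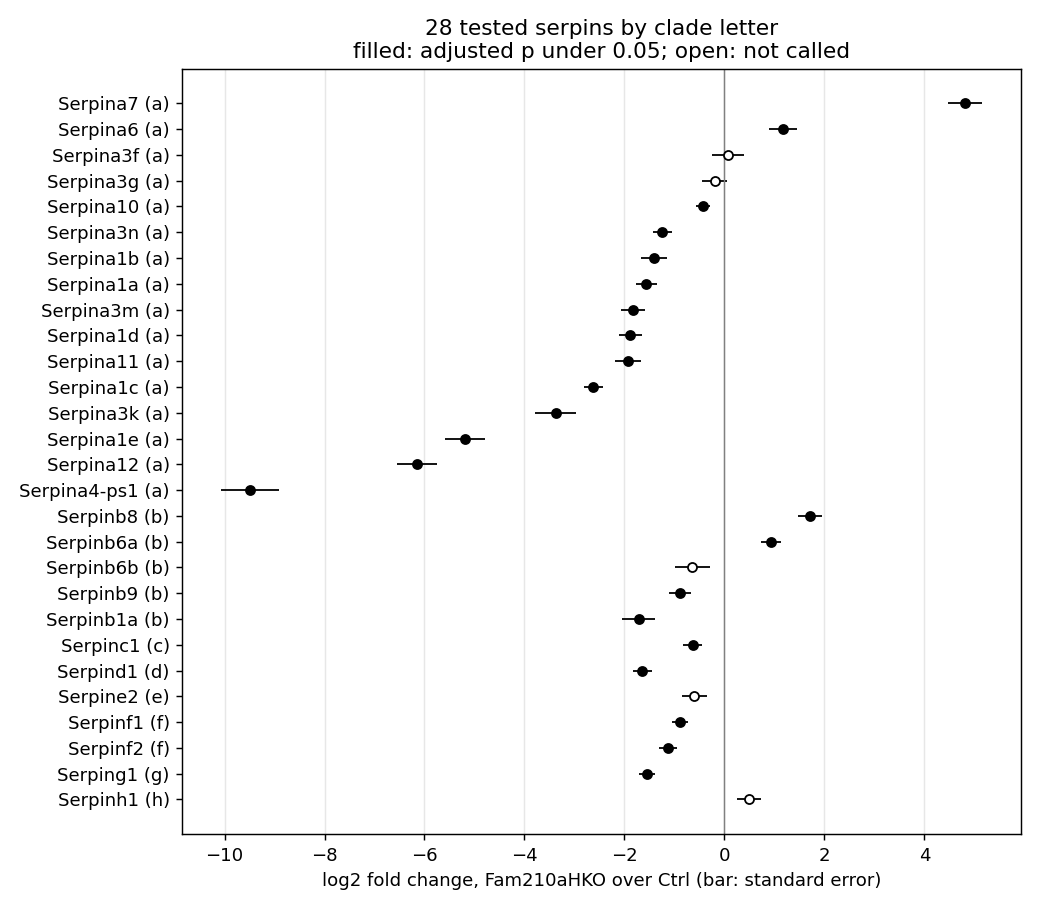
Log2 fold change of Fam210aHKO over Ctrl for 28 of the tested serpins, by gene and clade letter, with the standard error as a bar; filled points had an adjusted p under 0.05 in edgeR's quasi-likelihood test. The 4 filled points right of 0 are Serpina7, Serpina6, Serpinb8 and Serpinb6a, and the point of Serpina4-ps1 is a fitted value that rests on 1 count in Fam210aHKO and so has no firm size.

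The Serpina1 genes encode mouse alpha-1-antitrypsin, the main plasma inhibitor of neutrophil elastase, as a set of close copies on the minus strand of chromosome 12. The 240 bases upstream of their starts are shown because the copies have near-identical upstream sequence while their RNA changed by unequal amounts. They run from 250 to 11 bases before each RefSeq start in GRCm38.p6, at chr12:103863630-103863869 for Serpina1a, chr12:103738200-103738439 for Serpina1b, chr12:103904961-103905200 for Serpina1c, chr12:103773644-103773883 for Serpina1d and chr12:103956908-103957147 for Serpina1e. Capitals mark letters of 7 motifs searched on both strands, of which GTTAAT, TTGCNNAA (C/EBP) and ATTGATT (HNF6) occur here.
Serpina1a: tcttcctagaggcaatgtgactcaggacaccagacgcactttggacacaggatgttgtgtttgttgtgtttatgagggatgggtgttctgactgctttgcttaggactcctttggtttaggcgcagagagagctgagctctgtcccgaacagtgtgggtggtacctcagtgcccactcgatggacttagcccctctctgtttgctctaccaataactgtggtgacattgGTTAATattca
Serpina1b: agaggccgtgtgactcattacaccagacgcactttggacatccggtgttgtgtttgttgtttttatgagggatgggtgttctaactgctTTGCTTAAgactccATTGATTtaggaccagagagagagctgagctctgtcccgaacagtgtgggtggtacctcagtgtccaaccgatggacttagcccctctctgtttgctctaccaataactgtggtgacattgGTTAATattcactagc
Serpina1c: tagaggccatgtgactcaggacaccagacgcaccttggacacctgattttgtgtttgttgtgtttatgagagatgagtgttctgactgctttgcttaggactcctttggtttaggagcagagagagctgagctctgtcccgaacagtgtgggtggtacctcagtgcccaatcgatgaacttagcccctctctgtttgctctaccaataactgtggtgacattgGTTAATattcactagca
Serpina1d: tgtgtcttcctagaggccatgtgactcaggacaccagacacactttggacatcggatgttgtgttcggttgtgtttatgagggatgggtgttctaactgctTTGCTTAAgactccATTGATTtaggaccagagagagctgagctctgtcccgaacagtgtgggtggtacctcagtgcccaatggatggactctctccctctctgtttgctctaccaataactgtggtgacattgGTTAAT
Serpina1e: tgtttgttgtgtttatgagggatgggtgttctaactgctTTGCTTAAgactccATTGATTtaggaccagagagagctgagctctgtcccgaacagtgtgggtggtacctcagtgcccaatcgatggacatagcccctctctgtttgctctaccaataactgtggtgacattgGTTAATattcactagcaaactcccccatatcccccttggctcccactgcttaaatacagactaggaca

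All 5 windows hold GTTAAT, between positions -78 and -11 relative to the start, and 6.43% of 32851 RefSeq promoter windows of 250 bases hold it. The windows of Serpina1b, Serpina1d and Serpina1e also hold TTGCTTAA, a form of the C/EBP motif found in 9.56% of windows, and ATTGATT, found in 2.61%. Neither is spelled out in the windows of Serpina1a and Serpina1c. The 250-base windows of Serpina1a to Serpina1d matched one another at 91.4% to 95.5% of aligned columns. The window of Serpina1e, whose RefSeq start lies further downstream, matched the other 4 at 95.3% to 97.0% over 189 to 200 columns. The other 4 motifs were CAAAGTCCA (HNF4, 0.384% of windows), TGTTTAC (FOXA, 3.17%), TTCNNNGAA (STAT, 7.02%) and TTGCATCA (a C/EBP-ATF response element, 0.791%), and none of them is spelled out in these 5 windows. The letters GTTAAT were chosen after the windows had been seen, and a match of letters describes the sequence only.

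Every Serpina1 gene fell, and gene positions are those of the deposited table in mm10. The printed windows of Serpina1b and Serpina1e lie within the annotated span of their gene, outside its exons but for bases left out next to the start. Serpina1b, at chr12:103728156-103830373, had 6546, 7207 and 5934 CPM in Ctrl and 2583, 2301 and 2519 CPM in Fam210aHKO (log2 fold change -1.41, SE 0.26, adjusted p = 0.00235). Serpina1d, at chr12:103763594-103773592, had 3111, 3644 and 2802 CPM in Ctrl and 952, 759.8 and 886 CPM in Fam210aHKO (log2 fold change -1.88, SE 0.22, adjusted p = 0.000157). Serpina1a, at chr12:103853589-103863562, had 2612, 3004 and 2466 CPM in Ctrl and 1039, 755 and 949.6 CPM in Fam210aHKO (log2 fold change -1.56, SE 0.22, adjusted p = 0.000452). In these 3 genes the lowest Ctrl library stayed more than 2-fold above the highest Fam210aHKO library. Serpina1c, at chr12:103894926-103904887, had 1439, 1632 and 1316 CPM in Ctrl and 251, 207 and 252 CPM in Fam210aHKO (log2 fold change -2.63, SE 0.19, adjusted p = 7.33e-06). Serpina1e, at chr12:103946931-103958975, had 3868, 5666 and 8769 CPM in Ctrl and 114, 211 and 178 CPM in Fam210aHKO (log2 fold change -5.19, SE 0.41, adjusted p = 1.26e-05). Serpina1e kept 2.75% of its Ctrl mean, against 37.6% for Serpina1b, and it was the copy with the widest spread in Ctrl, where its coefficient of variation was 40.6% and that of the other 4 was 9.70% to 13.4%.

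Because the copies share sequence, reads could be assigned to the wrong one, and the treatment of multimapping reads was not given in the sources used here. Among all 100-base windows of their transcripts, 85.6% were unique to the gene for Serpina1e, 85.2% for Serpina1b, 70.7% for Serpina1d, 57.2% for Serpina1a and 30.7% for Serpina1c, so the split is least certain for Serpina1c and Serpina1a. Serpina1c also shares 31.5% of its exon bases with B430119L08Rik on the opposite strand. Summed to 1 feature before the fit, the 5 genes had 20006 ± 2105 CPM in Ctrl and 4652 ± 370 CPM in Fam210aHKO (SD, n = 3). On the log2 scale the sum fell by 2.10 (SE 0.37, edgeR, adjusted p = 0.00169).

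The make-up of that sum shifted. Serpina1e supplied 22.0%, 26.8% and 41.2% of it in Ctrl and 2.30%, 4.98% and 3.73% in Fam210aHKO. Serpina1b supplied 33.1 ± 4.76% in Ctrl and 53.1 ± 1.09% in Fam210aHKO, and Serpina1a 13.5 ± 1.73% and 19.6 ± 1.62%. Serpina1c went the way of Serpina1e, from 7.36 ± 1.05% to 5.08 ± 0.182%, while Serpina1d took 16.03 ± 2.49% and 18.6 ± 0.664%. The ranges of the groups did not overlap for any of the 5 shares, each with an exact permutation p of 0.1 (two-sided, n = 3 per group), the smallest possible. The 5 shares add to a whole and are not independent.

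**Figure D2:**
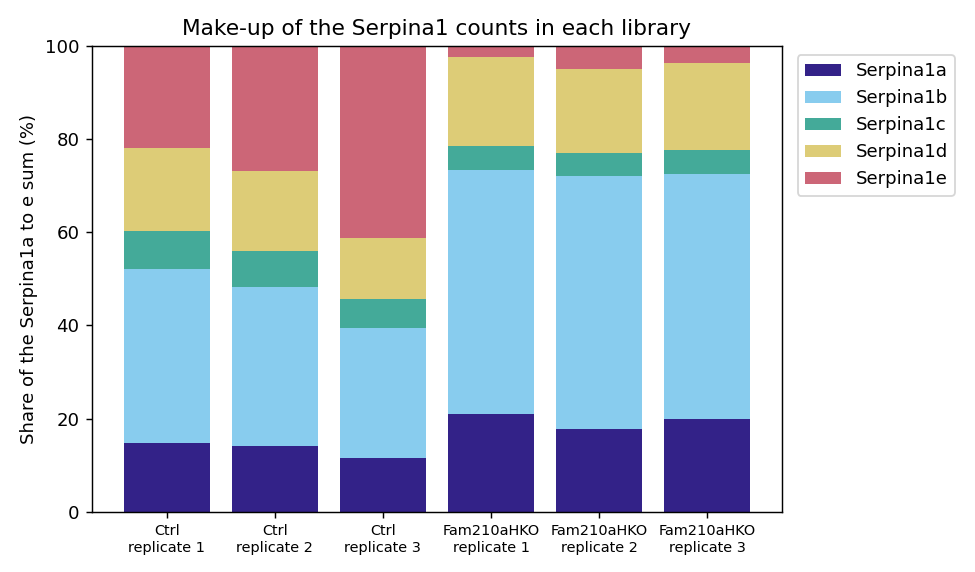
Stacked bars give the percentage of the summed Serpina1a to Serpina1e counts that came from each gene, 1 bar per library. The Serpina1e segment at the top spans 22.0% to 41.2% in Ctrl and 2.30% to 4.98% in Fam210aHKO, and Serpina1b is the largest segment in each Fam210aHKO library at 52.3% to 54.3%.

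The Serpina3 genes correspond to human alpha-1-antichymotrypsin and have expanded in rodents. Serpina3k, a plasma serpin that binds kallikrein, was the most abundant serpin of the Ctrl livers per kilobase of transcript. It had 13055, 26497 and 21427 CPM in Ctrl and 1779, 1947 and 2138 CPM in Fam210aHKO and fell in every Fam210aHKO library (log2 fold change -3.38, SE 0.42, adjusted p = 0.000204). Serpina3m, its neighbour on the plus strand, had 426, 867 and 537 CPM in Ctrl and 148, 185 and 182 CPM in Fam210aHKO (log2 fold change -1.83, SE 0.25, adjusted p = 0.000346). Serpina3n, an acute-phase inhibitor that acts on granzyme B, had 856, 1068 and 792 CPM in Ctrl and 319, 412 and 416 CPM in Fam210aHKO (log2 fold change -1.24, SE 0.19, adjusted p = 0.000741). The groups did not overlap in these 3 genes. All Serpina3 genes summed to 21861 ± 7096 CPM in Ctrl and 2527 ± 250 CPM in Fam210aHKO (SD, n = 3). On the log2 scale this sum fell by 3.11 (SE 0.42, edgeR, adjusted p = 0.000343). Within that sum the share of Serpina3k was 92.7 ± 1.60% in Ctrl and 77.4 ± 1.48% in Fam210aHKO, and that of Serpina3n was 4.398 ± 1.37% and 15.1 ± 0.952%, with no overlap of libraries for either (exact permutation test, n = 3 per group, two-sided p = 0.1).

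Serpina3k and Serpina3m share 60 exon bases on the same strand, and 95.1% and 93.9% of their 100-base windows were unique. The remaining tested pair, Serpina3f and Serpina3g, was low and was not called. Serpina3g, which inhibits lysosomal cathepsins in lymphocytes, had 9.57, 17.3 and 12.4 CPM in Ctrl and 8.18, 13.6 and 12.5 CPM in Fam210aHKO (adjusted p = 0.606). Serpina3f had 4.52, 5.44 and 4.37 CPM in Ctrl and 3.01, 7.91 and 4.25 CPM in Fam210aHKO (adjusted p = 0.900). In both genes the libraries of the groups interleaved, and the sign of the change depended on the processing.

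Serpina12 (vaspin, an inhibitor of kallikrein 7) and the pseudogene Serpina4-ps1, a relative of human kallistatin, are neighbours among the serpins of chromosome 12, at chr12:104028769-104044443 and chr12:104080649-104086724. Serpina12 had 13.2, 18.9 and 30.7 CPM in Ctrl and 0.383, 0.138 and 0.307 CPM in Fam210aHKO, on 842 counts in Ctrl and 17 in Fam210aHKO. By the fitted fold change it fell to 1.41% of its Ctrl level (log2 fold change -6.15, SE 0.41, adjusted p = 5.26e-06). Serpina4-ps1 had 152, 173 and 392 counts in Ctrl and 0, 0 and 1 in Fam210aHKO. The Ctrl level was 1079-fold the Fam210aHKO level, with a 95% exact interval of 193 to 42680.1 that covers counting error only, and edgeR called the fall at adjusted p = 7.69e-07. Serpina11 had 33.0, 28.3 and 35.6 CPM in Ctrl and 5.74, 7.02 and 12.6 CPM in Fam210aHKO (log2 fold change -1.93, SE 0.27, adjusted p = 0.000393), and 40.8% of its exon bases belong also to Gm28577 on the same strand. All 3 genes were lower in every Fam210aHKO library than in any Ctrl library.

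Serpina10, the protein Z-dependent inhibitor of coagulation factor Xa, had 151, 190.3 and 165 CPM in Ctrl and 118, 136 and 123 CPM in Fam210aHKO. The ranges were close but apart, and the fall was at the edge of the threshold (log2 fold change -0.43, SE 0.14, adjusted p = 0.0476). It was no longer called when any 1 of Ctrl replicates 2 and 3 or of the 3 Fam210aHKO libraries was left out (adjusted p = 0.0810 to 0.145). Scaled to library totals alone, it changed by 0.03 on the log2 scale (adjusted p = 0.879).

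The 2 rising members of clade a inhibit no protease. Serpina7 encodes thyroxine-binding globulin, a carrier of thyroid hormone in plasma, and lies on the X chromosome at chrX:139079257-139085236. Its level was 17.9, 8.93 and 8.34 CPM in Ctrl and 238, 451 and 297 CPM in Fam210aHKO, so the lowest Fam210aHKO library stood more than 10-fold above the highest Ctrl library. By the fitted fold change Serpina7 was 28.1-fold higher in Fam210aHKO (log2 fold change 4.81, SE 0.35, adjusted p = 7.64e-06). Serpina6 encodes corticosteroid-binding globulin, the carrier of glucocorticoids, and lies at chr12:103646630-103657212. It had 114, 86.9 and 47.1 CPM in Ctrl and 141, 217 and 203 CPM in Fam210aHKO and rose in Fam210aHKO with no overlap (log2 fold change 1.18, SE 0.28, adjusted p = 0.00966). In Ctrl both carriers were highest in replicate 1 and lowest in replicate 3, though Serpina7 was nearly level between replicates 2 and 3.

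The upstream windows of Serpina7 and Serpina12 are shown because these genes changed in opposite directions by large factors. They cover chrX:139085247-139085486 and chr12:104044454-104044693 of GRCm38.p6, both on the minus strand, again from 250 to 11 bases before a RefSeq start, with the same motifs in capitals.
Serpina7: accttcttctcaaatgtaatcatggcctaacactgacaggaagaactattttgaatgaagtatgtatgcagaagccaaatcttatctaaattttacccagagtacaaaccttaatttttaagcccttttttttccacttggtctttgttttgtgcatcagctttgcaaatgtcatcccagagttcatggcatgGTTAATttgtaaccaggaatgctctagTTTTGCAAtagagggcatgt
Serpina12: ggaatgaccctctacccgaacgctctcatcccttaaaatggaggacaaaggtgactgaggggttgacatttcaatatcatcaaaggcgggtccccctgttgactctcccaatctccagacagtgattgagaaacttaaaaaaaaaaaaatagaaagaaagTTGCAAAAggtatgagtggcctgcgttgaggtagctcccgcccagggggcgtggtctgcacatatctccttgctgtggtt

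The Serpina7 window holds GTTAAT and, on the opposite strand, TTTTGCAA, which is a C/EBP match. The Serpina12 window holds a C/EBP match and none of the other 6 motifs. Among the 25 windows of tested serpins, 8 hold GTTAAT and 8 hold a C/EBP match, and a gene with 2 RefSeq starts counts more than once. Both letter sets are thus found in members that rose and in members that fell.

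**Figure D3:**
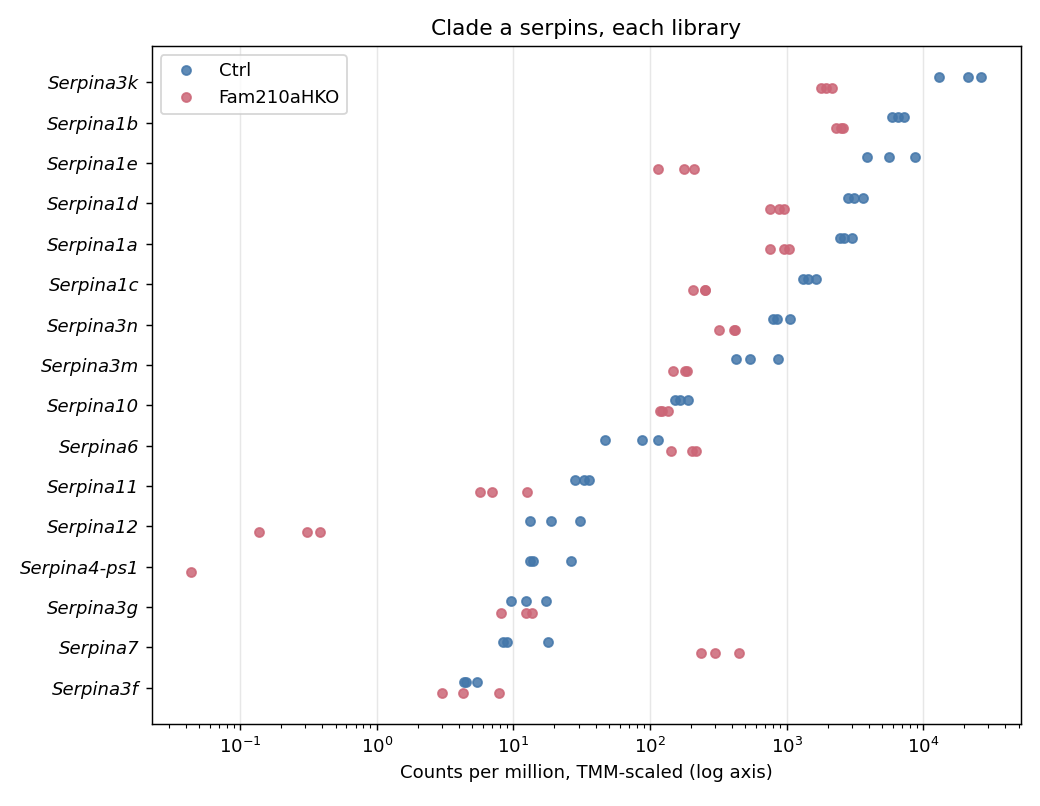
Level of the 16 tested clade a serpins in each of 6 libraries, in TMM-scaled CPM on a log axis, with Ctrl in blue and Fam210aHKO in red. The points of the groups are apart for 14 genes, Serpina7 being the widest gap to the right; the Fam210aHKO libraries of Serpina4-ps1 at 0 cannot be drawn on this axis.

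The 28 chromosome 12 members lie within chr12:103614786-104414329 in the coordinates of the deposited table. Of these 15 were tested, 1 rose and 12 fell. Every tested gene of that interval, these 15 serpins included, came to 17, with 1 higher and 14 lower. The count is thus nearly the serpin count again. Over all tested genes 14% rose and 13.5% fell. The only member of the interval called higher was Serpina6. Among the untested members, 3 had counts in Ctrl but 0 in all Fam210aHKO libraries. Serpina9 had 25 counts in Ctrl, which is 12.5-fold higher if Fam210aHKO is set at 3 counts in all. The lower end of its exact 95% counting interval was 9.47-fold. Serpina5, the protein C inhibitor, had 15 counts in Ctrl, at least 7.52-fold higher by the same floor. DESeq2, which kept both, called them lower (adjusted p = 0.00119 and 0.0158). Serpina3a had 4 counts in Ctrl.

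**Figure D4:**
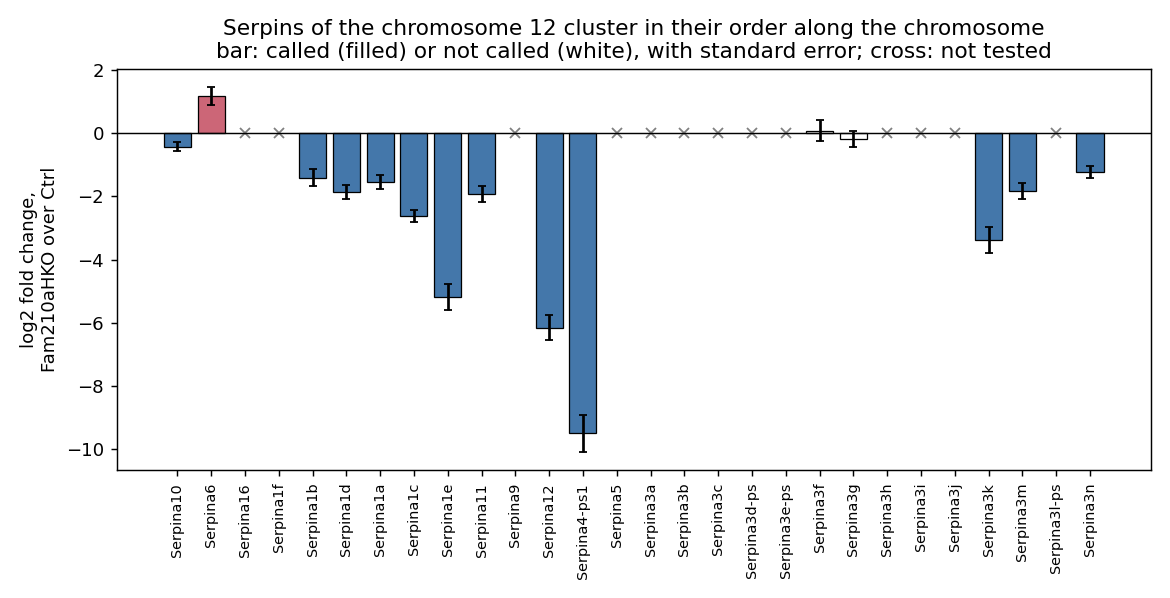
Log2 fold change with standard error for the 28 serpins of chromosome 12 in their order along the chromosome, filled where the adjusted p was under 0.05 and a cross where the gene was not tested. Called bars point down for 12 genes and up for Serpina6; the bar of Serpina4-ps1 is a fitted value resting on 1 count in Fam210aHKO.

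Clades c to g hold the single-copy plasma inhibitors of clotting, fibrinolysis and complement. In these clades 5 members fell, 4 of which are such inhibitors. Serpinc1 (antithrombin, which inhibits thrombin and factor Xa) had 2044, 1693 and 1754 CPM in Ctrl and 1114, 1157 and 1269.8 CPM in Fam210aHKO. Its fall was the smallest of the 5 (log2 fold change -0.63, SE 0.19, adjusted p = 0.0320) and was not called with library totals (-0.18 on the log2 scale, adjusted p = 0.467) or without 1 of Ctrl replicates 1 and 3 or Fam210aHKO replicates 1 and 2 (adjusted p = 0.0627 to 0.107). Exons of Zbtb37 on the opposite strand cover 34.4% of its exon bases. Serpind1 (heparin cofactor II, an inhibitor of thrombin) had 564, 655 and 599 CPM in Ctrl and 186, 154 and 243 CPM in Fam210aHKO (log2 fold change -1.64, SE 0.19, adjusted p = 0.000134). Serpinf2 (alpha-2-antiplasmin, the inhibitor of plasmin) had 838, 656 and 845 CPM in Ctrl and 344, 317 and 412 CPM in Fam210aHKO (log2 fold change -1.12, SE 0.18, adjusted p = 0.00103). Serping1 (C1 inhibitor, which acts on complement C1r and C1s, plasma kallikrein and factor XII) had 869, 848 and 812 CPM in Ctrl and 262, 266 and 336 CPM in Fam210aHKO (log2 fold change -1.55, SE 0.17, adjusted p = 9.35e-05). In these 4 genes every Fam210aHKO library was below every Ctrl library.

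Serpinf1 encodes pigment epithelium-derived factor, a secreted serpin without inhibitory activity. It had 583, 432 and 533 CPM in Ctrl and 277, 263 and 295 CPM in Fam210aHKO (log2 fold change -0.89, SE 0.16, adjusted p = 0.00230), and with library totals its adjusted p was 0.0640. Serpinh1 (HSP47, the collagen chaperone of the endoplasmic reticulum) had 8.78, 9.25 and 7.26 CPM in Ctrl and 10.2, 9.01 and 16.4 CPM in Fam210aHKO. Serpine2 (protease nexin 1) had 3.65, 3.41 and 3.50 CPM in Ctrl and 2.58, 1.72 and 2.59 CPM in Fam210aHKO. Neither was called, with adjusted p of 0.153 and 0.109, and the ranges overlapped for Serpinh1 but not for Serpine2. With library totals Serpinh1 was called higher (0.95 on the log2 scale, adjusted p = 0.00728), and it was highest in Fam210aHKO replicate 3.

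Clade b serpins were low in all libraries and split in direction. Serpinb8, which can inhibit furin, had 2.96, 1.87 and 2.35 CPM in Ctrl and 6.70, 7.57 and 9.26 CPM in Fam210aHKO (log2 fold change 1.71, SE 0.25, adjusted p = 0.000544). Serpinb6a, an inhibitor of cathepsin G, had 14.3, 21.4 and 17.5 CPM in Ctrl and 26.5, 41.1 and 34.2 CPM in Fam210aHKO (log2 fold change 0.93, SE 0.20, adjusted p = 0.00593), with 29.3% of its exon bases shared with genes of the opposite strand. Both rose with no overlap. Serpinb1a, an inhibitor of neutrophil serine proteases, had 4.17, 9.50 and 6.39 CPM in Ctrl and 1.48, 2.06 and 2.54 CPM in Fam210aHKO (log2 fold change -1.72, SE 0.33, adjusted p = 0.00294). Serpinb9, the inhibitor of granzyme B, had 11.6, 20.6 and 16.6 CPM in Ctrl and 7.56, 9.36 and 9.56 CPM in Fam210aHKO (log2 fold change -0.88, SE 0.22, adjusted p = 0.0132, or 0.118 with library totals). Both of these fell with no overlap. Serpinb6b was not called, at 3.22, 8.85 and 4.30 CPM in Ctrl and 2.73, 3.65 and 4.08 CPM in Fam210aHKO (adjusted p = 0.200). The untested Serpinb1c had 25 counts in Ctrl and 0 in Fam210aHKO, 12.5-fold higher in Ctrl with Fam210aHKO at 3 counts in all. The lower end of its exact 95% counting interval was 9.47-fold, and DESeq2 called Serpinb1c lower (adjusted p = 0.000927).

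**Figure D5:**
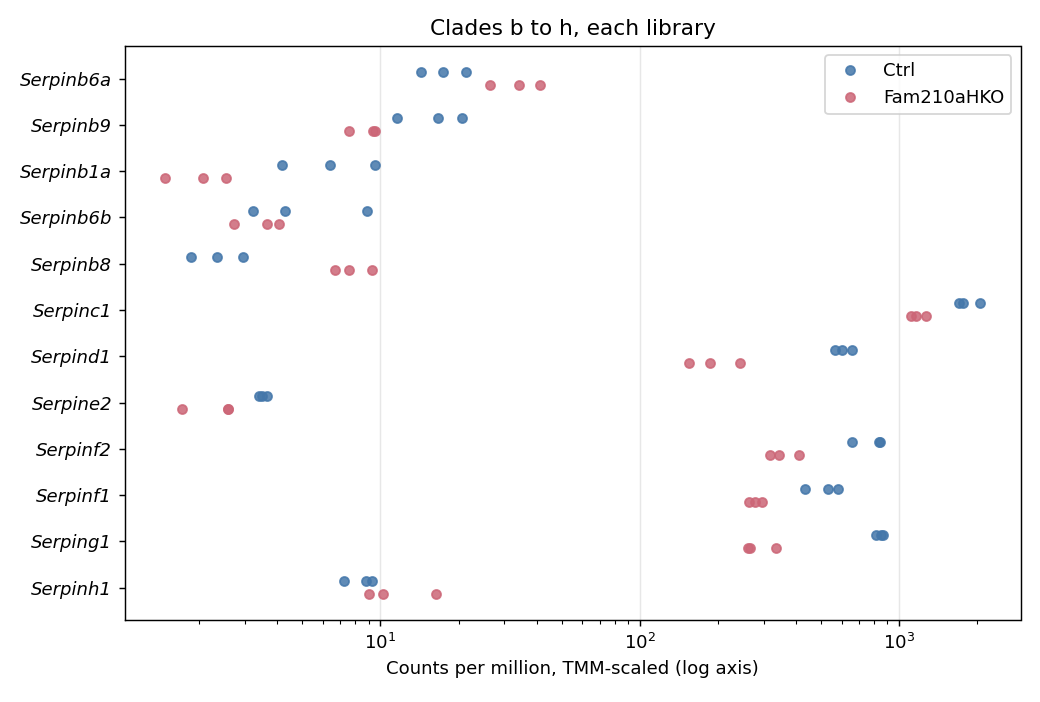
Level of 12 tested serpins of clades b to h in each of 6 libraries, in TMM-scaled CPM on a log axis, with Ctrl in blue and Fam210aHKO in red. Serpinc1, Serpind1, Serpinf1, Serpinf2 and Serping1 sit above 100 CPM and are lower in Fam210aHKO, while the clade b genes sit below 50 CPM and go both ways.

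The remaining untested members reached few counts. In 21 of the 39 untested members no library had a count, among them Serpina1f, Serpina16, Serpinb5 and Serpini2. Serpini1 (neuroserpin) had 0, 3 and 3 counts in Ctrl and 12, 5 and 17 in Fam210aHKO and was not called by DESeq2 (adjusted p = 0.211). The other untested members had at most 10 counts in any library.

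Ranked by CPM per kilobase, the Ctrl order began with Serpina3k (9882 ± 3300.0), Serpina1e (3773 ± 1533), Serpina1b (2717 ± 263), Serpina1d (2285 ± 306) and Serpina1a (1471 ± 152). In Fam210aHKO it began with Serpina1b (1022 ± 61.3), Serpina3k (950.2 ± 87.4), Serpina1d (621 ± 69.9), Serpina1a (499 ± 79.1) and Serpina3n (185 ± 26.5). Within Fam210aHKO, Serpina1b and Serpina3k differed by less than the sum of their SDs, as did Serpina1d and Serpina1a. In Ctrl the same held for Serpina1e and Serpina1b and for Serpina1b and Serpina1d. Serpina7 moved from rank 20 of 29 to rank 9, and Serpina1e from rank 2 to rank 13. Levels of different genes are compared here per length, and sequence shared between copies limits the order.

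Members differed in which Ctrl library was highest. Serpina1e, Serpina12 and Serpina4-ps1 were highest in replicate 3, Serpina3k and Serpina1c in replicate 2, and Serpina6 and Serpina7 in replicate 1. Genes known for higher expression in male liver had a summed level of 2902, 3009.6 and 4324 CPM over 10 genes, against 321, 149.8 and 233 CPM in Fam210aHKO. Genes known for higher expression in female liver summed to 196, 135 and 25.8 CPM in Ctrl and 1132, 2043 and 1529 CPM in Fam210aHKO. All 10 tested male-biased genes fell and 7 of 10 tested female-biased genes rose, against 13.5% and 14% of all tested genes. These lists were added after the data had been seen, and their part in the serpin changes was not tested.

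The proteases that serpins inhibit, a list of 31 genes, had 26 tested, of which 3 rose and 14 fell (median log2 fold change -0.67). That is 65.4% called, against 27.5% of all tested genes, of which 14% rose and 13.5% fell. Coagulation factor F7 had 93.0 ± 1.61 CPM in Ctrl against 26.7 ± 4.46 CPM in Fam210aHKO (log2 fold change -1.80, adjusted p = 2.06e-05). F11 had 68.4 ± 8.07 CPM in Ctrl against 22.1 ± 3.45 CPM in Fam210aHKO (adjusted p = 5.51e-05). Factor F10, a target of Serpinc1 and Serpina10, had 439 ± 58.9 CPM in Ctrl against 189 ± 20.3 CPM in Fam210aHKO (adjusted p = 0.000332). These 3 proteases act upstream of thrombin in clotting, and all fell. Plasma kallikrein, Klkb1, had 191 ± 43.0 CPM in Ctrl against 39.4 ± 16.1 CPM in Fam210aHKO (adjusted p = 0.000296). Plasminogen, Plg, the precursor of the Serpinf2 target plasmin, had 2332 ± 263 CPM in Ctrl against 891 ± 235 CPM in Fam210aHKO (adjusted p = 0.00154). Prothrombin, F2, was not called, at 1698 ± 175 CPM in Ctrl against 1307 ± 55.8 CPM in Fam210aHKO (adjusted p = 0.171). In the other direction, a cysteine protease of lysosomes rose. This was cathepsin L, Ctsl, at 1101 ± 316 CPM in Ctrl against 3209 ± 879.8 CPM in Fam210aHKO (adjusted p = 0.00266). With library totals the list had 8 higher and 10 lower with a median of -0.22.

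Other protease inhibitors without the serpin fold had 28 tested members, 5 of which rose and 7 fell (median -0.11). That is 42.9% called, against 27.5% of all tested genes, of which 14% rose and 13.5% fell. Mug1, a plasma inhibitor of the alpha-macroglobulin type, had 8857 ± 1518 CPM in Ctrl against 1554 ± 496 CPM in Fam210aHKO (adjusted p = 0.000332), and cystatin B, Cstb, 26.2 ± 3.86 CPM in Ctrl against 53.7 ± 10.6 CPM in Fam210aHKO (adjusted p = 0.00191). Cofactors, receptors and clearance genes had 23 tested, 3 higher and 6 lower (median -0.21), or 4 higher and 10 lower with the replicate block. In the main fit 39.1% of this list was called, and 3 higher of 23 is close to the share of all tested genes that rose. Protein Z, Proz, the cofactor of Serpina10, had 338 ± 29.4 CPM in Ctrl against 103 ± 32.6 CPM in Fam210aHKO (adjusted p = 0.000223). Vitronectin, Vtn, an adhesive glycoprotein of plasma, had 2222 ± 258 CPM in Ctrl against 900.2 ± 152 CPM in Fam210aHKO (adjusted p = 0.00118). With library totals these lists had 11 higher and 7 lower (median 0.35) and 7 higher and 3 lower (median 0.23), so the sign of both medians follows the scaling. Agt, the renin substrate, had 716 ± 199.8 CPM in Ctrl against 414 ± 52.8 CPM in Fam210aHKO (log2 fold change -0.79, adjusted p = 0.0169), and with library totals its adjusted p was 0.213.

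Among genes of hormone transport and action beside Serpina6 and Serpina7, 15 were tested, 1 rose and 7 fell (median -0.60). That is 53.3% called, against 27.5% of all tested genes. The count of lower genes in this list was 4 with library totals (2 higher, median -0.15) and 10 with the replicate block. Transthyretin, Ttr, the other plasma carrier of thyroid hormone, had 6156 ± 1188 CPM in Ctrl against 2556 ± 388 CPM in Fam210aHKO (log2 fold change -1.27, adjusted p = 0.00651), opposite in direction to Serpina7. Dio1, which activates thyroid hormone, had 173 ± 21.4 CPM in Ctrl against 40.6 ± 21.9 CPM in Fam210aHKO (adjusted p = 0.000756), and Hsd11b1, which regenerates active glucocorticoid, 816 ± 114 CPM in Ctrl against 221 ± 58.3 CPM in Fam210aHKO (adjusted p = 0.000130). Igfbp1, a glucocorticoid-responsive secreted protein, had 272 ± 17.3 CPM in Ctrl against 1616 ± 232 CPM in Fam210aHKO (adjusted p = 9.84e-06). Collagens and their folding genes, clients and partners of Serpinh1, had 27 tested, 9 higher and 2 lower (median 0.46), and 19 higher and 1 lower with library totals. In the main fit 40.7% of this list was called. The 9 higher became 4, 3 and 3 without Ctrl replicate 1, 2 and 3, and 5 either without Fam210aHKO replicate 3 or on the log2(FPKM + 1) scale. P4ha2, a collagen prolyl hydroxylase subunit, had 3.05 ± 0.0443 CPM in Ctrl against 11.01 ± 0.969 CPM in Fam210aHKO (adjusted p = 7.56e-05).

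Of 18 tested transcription factors of hepatocyte serpin genes, 1 rose and 6 fell (median -0.30). That is 38.9% called, against 27.5% of all tested genes. With library totals 3 were higher and 2 lower with a median of 0.15. The count of falling factors was 3 without Ctrl replicate 3, and with the replicate block it was 9. Cebpa, a C/EBP factor, had 325 ± 78.7 CPM in Ctrl against 136 ± 14.2 CPM in Fam210aHKO (adjusted p = 0.000759). Hnf4a had 790.2 ± 147 CPM in Ctrl against 462 ± 62.0 CPM in Fam210aHKO (adjusted p = 0.0119), which was not called with library totals (0.209) or without Fam210aHKO replicate 2 (0.0605). Atf4, an effector of the integrated stress response, was the 1 that rose, at 65.8 ± 1.20 CPM in Ctrl against 149 ± 19.99 CPM in Fam210aHKO (adjusted p = 0.000192). Levels of these factors and of serpins were not linked by any test.

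Markers of other liver cells were counted in the same fit, where 14% of all tested genes rose and 13.5% fell. In either direction 27.5% of all tested genes were called. The stellate (27.3%), erythroid (28.6%) and endothelial (16.7%) lists were near or below that share. All calls within each of these lists went in a single direction, for which the shares of all tested genes are 14% higher and 13.5% lower. Each list was above its share in that direction. No neutrophil, T and NK cell or B cell marker was called. Cholangiocyte markers had 5 of 8 tested higher, with a sum of 54.6 to 75.6 CPM in Ctrl and 159 to 298 CPM in Fam210aHKO. Kupffer cell and macrophage markers had 6 of 14 higher, with sums of 564 to 717 CPM and 671 to 1108 CPM. Spp1 is in both lists. Stellate and fibroblast markers had 3 of 11 higher, at 402 to 466 CPM and 516 to 777 CPM. The summed ranges of the groups were apart for cholangiocyte and stellate markers and overlapped for Kupffer markers. With library totals the higher markers came to 7 of cholangiocytes, 10 of Kupffer cells and 8 of stellate cells. Without Ctrl replicate 3, and on the log2(FPKM + 1) scale, 1 stellate marker was higher. Endothelial markers had 2 of 12 lower. That count was 0 with library totals or without any 1 of Ctrl replicates 2 and 3 and Fam210aHKO replicates 1 and 2, and 1 without Ctrl replicate 1. It was 6 with the replicate block or without Fam210aHKO replicate 3. Erythroid markers had 2 of 7 tested lower, Alas2 (53.6 ± 12.4 CPM in Ctrl against 9.53 ± 5.03 CPM in Fam210aHKO, adjusted p = 0.000253) and Klf1 (3.28 ± 0.353 CPM in Ctrl against 0.889 ± 0.143 CPM in Fam210aHKO, adjusted p = 0.000796). The median log2 fold change of the 7 was 1.22, opposite in sign to these calls. Hba-a1 (1.75), Hba-a2 (1.22), Hbb-bs (1.45), Hbb-bt (1.45) and Epor (0.63) had positive log2 fold changes and were not called. The summed level of the whole erythroid list was 87.2 to 89.5 CPM in Ctrl and 43.0, 25.8 and 241 CPM in Fam210aHKO, with replicate 3 apart from the rest. Erythroid markers called higher were 0, but 3 with library totals and 2 without either Fam210aHKO replicate 1 or 2. Mesothelial markers had 2 of 3 tested lower, at 5.78 to 6.66 CPM against 1.72 to 3.29 CPM. Neutrophil markers summed to 5.57 to 6.82 CPM and 4.88 to 8.05 CPM, with Mpo and Ly6g at 0.0459 CPM or less in the mean of either group. T and NK cell markers summed to 8.61 to 8.94 CPM and 5.30 to 8.33 CPM, and B cell markers to 10.7 to 17.5 CPM and 7.70 to 17.3 CPM. Most serpins of clades a, c, d, f and g are hepatocyte products, whereas Serpinb1a, Serpinb6a, Serpinb8 and Serpinb9 are made by several of these cell types. The part of these cells in the serpin results was not tested.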

How the data were processed

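Liver RNA of 6 libraries, 3 Ctrl and 3 Fam210aHKO, was compared. The authors deposited whole-number counts per gene and FPKM values per gene and library. Per the submitters' processing notes, the tools were STAR, featureCounts, Trimmomatic, FastQC and DESeq2, and the build was mm10. Strand setting and multimapping treatment were not given in the sources used here. Counts were tested with edgeR 4.0.16 (glmQLFit, legacy form off, R 4.3.3), filterByExpr at minimum count 10, TMM scaling, group as the only factor, and Benjamini-Hochberg adjustment over 13706 genes. CPM values use TMM-scaled totals. The mean TMM factor was 0.855 for Ctrl libraries and 1.17 for Fam210aHKO libraries. With library totals the median log2 fold change of all genes was 0.47 in place of 0.02, and 87.1% of calls were higher in place of 50.9%. A count of 3 was 0.132 to 0.261 CPM, and the common biological coefficient of variation was 0.196.

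Alternatives were median-of-ratios factors, library totals, 2 other filters, DESeq2 1.42.0, limma-voom and limma 3.58.1 on log2(FPKM + 1) and log2(FPKM + 0.1) of the deposited FPKM values, summed paralogs, the replicate number as a block and each library left out. The legacy form of the quasi-likelihood test was added after the data were seen. Deviations of same-numbered libraries from their group means correlated at 0.245, 0.182 and 0.155, and other pairs at -0.141 to -0.0262. Every same-number correlation exceeded 0.1, the rule used here for treating the numbers as possible pairs. These correlations are small and tied to one another, because deviations within a group are not independent. They do not establish that the libraries are paired, and the labels do not say what equal numbers share. The fit was tested on simulated data. Promoter windows are from RefSeq tables of GRCm38.p6 and matched 53 of 68 members by symbol; uniqueness of sequence and exon overlap use GENCODE mouse release 21.

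Named with values in every library were all called serpins, the 5 most abundant per kilobase, all tested members of clades c to i, and tested members of clades a and b that were not called; 1 tested serpin and 1 listed gene that this rule names count in the totals and are not reported here. The members and gene lists were chosen with earlier results of these data known. Intervals and floors cover counting error only. No library pair of 1 group agreed within counting noise.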

Additional observations from a re-analysis of the deposited data

How the results depend on the processing

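The counts of 4 higher and 19 lower serpins became 6 and 15 with library totals, and 4 and 13 with paralogs summed, which makes 6 falling features of the 12 falling members of clade a. With library totals 1 clade b member was lower in place of 2, 2 members of clades c to i were higher in place of 0, and 3 of them were lower in place of 5. Leaving out single libraries gave 4 higher each time and 17 to 18 lower. With the replicate block the counts were 4 and 19, and the block changed no serpin call, although over all genes it gave 2434 higher and 2462 lower in place of 1922 and 1852. Signs reversed with library totals for Serpina10 (0.0297), Serpina3g (0.267) and F2 (0.0688). The uncalled Serpina3f had a log2 fold change of 0.07 that became -0.084 in limma-voom, -0.0486 and -0.0869 on log2(FPKM + 1) and log2(FPKM + 0.1), and -0.0096 with the replicate block. When single libraries were left out, the range was -0.388 to 0.318 for Serpina3f, -0.388 to 0.0417 for Serpina3g, -0.513 to -0.349 for Serpina10 and -0.701 to -0.557 for Serpinc1. The cause was not tested. Serpina10 was also not called without the filter (adjusted p = 0.125), in limma-voom (0.0597) or with the legacy form (0.0586). Of the 39 members that the filter on low counts left out, DESeq2 called 3 lower. The order of the Serpina1 copies, which share sequence, may depend on how shared reads were assigned, and this was not tested.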
